A study of Mus musculus with 92 samples.

Results

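Mitochondrially encoded transcripts of oxidative phosphorylation (OXPHOS) were followed in single blastomeres of 8-cell mouse embryos. They were taken by name, as every row whose symbol starts with mt-Nd, mt-Co, mt-Atp or mt-Cytb, which gave 7 of the 7886 genes in the count table. The 7 are mt-Nd1, mt-Nd2, mt-Nd4, mt-Nd5 and mt-Nd6 of complex I, mt-Cytb of complex III and mt-Co1 of complex IV. Mitochondrial DNA has 13 protein genes in the annotation, and the other 6 (mt-Co2, mt-Co3, mt-Atp6, mt-Atp8, mt-Nd3 and mt-Nd4l) were not analysed here. The lowest count of any of the 7 in any cell was 323 reads. The filter on low counts removed 0 genes, from counts that by their name had already been filtered on CPM when deposited.

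All embryos carried the label WT and the strain C57BL/6N, all titles mark them as from in vitro fertilisation (IVF), and all had been injected at the zygote stage. The Let7d group, injected with a mimic of let-7d, held 18 cells from 3 mouse ids. The Let7e group, injected with a mimic of let-7e, held 20 cells from 4 mouse ids. The group named mi699a-5p after the injected microRNA held 21 cells from 4, and NC, the negative control, held 22 cells from 3. The study's title concerns a role of let-7 in mitochondria and in metabolic inheritance from fathers, and the comparisons ask how the level of these transcripts differs with the injected material.

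Mitochondrial DNA is a small circle present in many copies per cell, and its protein genes encode core subunits of the respiratory chain, whose other subunits come from nuclear genes. Both strands are transcribed from end to end by the polymerase Polrmt, and the long products are cut at tRNAs into separate messages that mostly receive a poly(A) tail. Early mouse embryos carry a large store of mitochondria from the egg and do not replicate their mitochondrial DNA before implantation. MicroRNAs act on messages in the cytosol through bases 2 to 8, the seed, and the let-7 family shares 1 seed.

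The injected let-7 sequences are shown because their shared seed is what a match in the transcripts is read against (capitals, bases 2 to 8, RefSeq, GRCm38.p6). The gene of mmu-let-7d-5p is on the minus strand at chr13:48536078-48536099 and that of mmu-let-7e-5p on the plus strand at chr17:17830366-17830387. The label mi699a-5p was not matched to a sequence.
mmu-let-7d-5p: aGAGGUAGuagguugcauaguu
mmu-let-7e-5p: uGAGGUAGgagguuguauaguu

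The letters CTACCTC, the reverse complement of the seed, were found 0 times on the sense strand of the 7 genes, which together span 8405 bases. The shorter TACCTC, against bases 2 to 7, was found 1 time, in mt-Cytb on the plus strand at chrM:15057-15085 (capitals), in GENCODE M21 on GRCm38. In the longest transcripts of 21938 nuclear protein-coding genes these letters occurred 0.0795 and 0.220 times per kilobase, against 0 and 0.119 in the 7. The mitochondrial ribosomal RNA mt-Rnr1 held the longer letters 1 time. A match is a description of letters and not a site.
mt-Cytb, match to bases 2 to 7: cctttccttcaTACCTCaaagcaacgaag

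The ends of 4 genes are shown because a pair of them overlap on opposite strands and the other two are completed by the tail that Smart-seq2 copies from, with the stop in capitals (GRCm38, chrM:13536-13565 plus strand for mt-Nd5, chrM:13552-13581 minus strand for mt-Nd6, chrM:15259-15288 plus strand for mt-Cytb and chrM:11515-11544 plus strand for mt-Nd4). The stops of mt-Cytb and mt-Nd4 are encoded only as T, and it is the poly(A) tail that completes them.
mt-Nd5 end: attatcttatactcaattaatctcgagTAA
mt-Nd6 end: tttattattatcgagattactcgagatTAA
mt-Cytb end: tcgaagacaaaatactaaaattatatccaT
mt-Nd4 end: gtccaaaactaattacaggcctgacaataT

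mt-Nd6 is the only one of the 7 on the minus strand, and its end shares 14 bases with the end of mt-Nd5 on the opposite strand. Smart-seq2, which copies full-length poly(A) RNA of 1 cell into cDNA, keeps no strand, so reads from transcripts antisense to either gene cannot be told apart from its own. It also attaches no molecular identifiers, and the counts are reads.

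Single blastomeres carried 1575609 to 4950404 reads on the 7886 genes, with a median of 2736612. The cell type was checked by 18 genes of preimplantation blastomeres, of which 16 were measured, with summed levels of 9040 to 12420 CPM (counts divided by the library's total and scaled) per mouse id. Of 18 cumulus and granulosa genes 2 were measured (Amhr2 and Nr5a2, 131 to 342 CPM summed), of 10 sperm transcripts 1 (Odf2, 4.84 to 42.8 CPM), and of 8 blood genes 0. The counts had been filtered on CPM before, so a gene without a row is not shown to be absent from the cells. What a mouse id stands for, an embryo or a parent, is not given in the labels. Y-linked genes, summed over Ddx3y, Eif2s3y, Kdm5d and Usp9y, were at 0 to 2.72 CPM in 31 cells and at 21.6 to 334 CPM in 50. In 4 mouse ids (Let7e replicate 1, mi699a-5p replicates 2 and 4, and NC replicate 2) cells of both kinds occurred, so cells of 1 mouse id are not called sisters of 1 embryo here, although the within-id spread is the nearest measure of it in these data. Each group had its own mouse ids and no batch is named, so the injected material and any batch that goes with a group cannot be told apart. In a sum over cells, fewer transcripts per cell and a larger amount of other RNA cannot be told apart either.

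The 7 transcripts were present at very different levels. As the mean over 14 mouse ids, mt-Cytb, the central subunit of complex III, made up 38.5% ± 3.76 of the reads of the 7 (SD over mouse ids). It was followed by mt-Nd1, a subunit at the membrane arm's joint with the peripheral arm of complex I, with 19.7% ± 3.19. The catalytic core of complex IV, mt-Co1, had 13.4% ± 2.18, close to mt-Nd5 with 12.6% ± 1.21. The proton-pumping subunits mt-Nd2 and mt-Nd4 had 8.11% ± 1.39 and 6.21% ± 0.635, and mt-Nd6 had 1.36% ± 0.239.

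Per kilobase of gene the order was partly different. mt-Cytb stood at 12260 ± 3898 CPM per kilobase, mt-Nd1 at 7535 ± 2719 and mt-Co1 at 3107 ± 889. Then came mt-Nd2 at 2753 ± 906, mt-Nd5 at 2440 ± 603, mt-Nd4 at 1616 ± 490 and mt-Nd6 at 930 ± 326 (SD over 14 mouse ids). The first and the second place stood apart from the rest by more than 1 SD, while mt-Co1, mt-Nd2 and mt-Nd5 lay within 1 SD of each other.

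Nuclear copies of mitochondrial DNA limit these orders for 2 genes. Among annotated nuclear pseudogenes, stretches of 75 bases were found unchanged for 61.5% of the positions of mt-Nd4 and 39.8% of those of mt-Co1, against 5.71% for mt-Nd2, 1.66% for mt-Nd5 and 0% for mt-Nd1, mt-Nd6 and mt-Cytb. The larger block of copies lies on chromosome 1 between 24611535 and 24616197 (GRCm38), where Gm28439 matches mt-Nd4 and Gm29216 matches mt-Co1. For 5 of the 6 genes not analysed here the share was 97.8% to 99.9%, and for mt-Atp8 0%. How reads with more than 1 place were counted is not given in the sources used here, so whether they were dropped was not tested. Per 1000 positions without a copy, mt-Co1 stood at 5424 CPM and mt-Nd4 at 4436 CPM, against 13110 CPM for mt-Cytb, 8166 for mt-Nd1 and 3144 for mt-Nd2. Comparisons of 1 gene between groups share the same gene model in every sample.

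Levels of all 7 transcripts were lower in Let7d than in NC in every mouse id, with no overlap, but none passed the test over all genes. The share of ribosomal RNA reads was lower in Let7d. With that share as a covariate the differences lay between -0.39 and -0.03 on the log2 scale, against -0.98 to -0.55 without it. With the ribosomal RNA rows left out of the counts and no covariate, mt-Nd1 was at -0.78, mt-Nd2 at -0.98, mt-Nd4 at -0.64, mt-Nd5 at -0.55 and mt-Nd6 at -0.70. Values below are per mouse id, as CPM of the summed counts of its cells, scaled with TMM factors. Fold changes are log2 with their standard error, from edgeR's quasi-likelihood F test in 1 fit of the 4 groups, with 10 residual degrees of freedom and Benjamini-Hochberg adjustment over all 7886 genes.

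In complex I, mt-Nd1 had 4296, 4490 and 3317 CPM in Let7d, against 7534, 5498 and 7766 CPM in NC. The 3 Let7d values lay below the 3 NC values, and the log2 fold change was -0.78 ± 0.27 (edgeR p = 0.00866, adjusted p = 0.928). mt-Nd2 had 1551, 2127 and 1091 CPM in Let7d, against 3164, 2836 and 3380 CPM in NC. It was the largest of the 7 differences, at -0.98 ± 0.29 (edgeR p = 0.00362, adjusted p = 0.886). mt-Nd4 had 1832, 1789 and 1079 CPM in Let7d, against 2430, 2343 and 2530 CPM in NC (-0.64 ± 0.29). For mt-Nd5 the values were 3035, 3732 and 2546 CPM in Let7d, against 4571, 4214 and 4880 CPM in NC (-0.55 ± 0.24). The lowest transcript, mt-Nd6, had 320, 412 and 231 CPM in Let7d, against 465, 570 and 527 CPM in NC (-0.70 ± 0.32). In each of these 3 genes Let7d replicate 3 was the lowest of all 14 mouse ids.

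In complex III, mt-Cytb had 11030, 10240 and 6364 CPM in Let7d, against 17870, 12590 and 15970 CPM in NC. The log2 fold change was -0.75 ± 0.29 (edgeR p = 0.0205, adjusted p = 0.986), and the groups did not overlap. In complex IV, mt-Co1 had 3841, 3401 and 2388 CPM in Let7d, against 5885, 4693 and 6298 CPM in NC, with a log2 fold change of -0.81 ± 0.27 (edgeR p = 0.00853, adjusted p = 0.928).

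By edgeR at an adjusted p under 0.05, 0 of the 7 were called in Let7d over NC, where 0.0127% of all genes were called. At an unadjusted p under 0.05, 7 of 7 passed, where 4.69% of all genes did. Values of Let7d lay wholly below those of NC for 7 of 7, where this held for 5.96% of all genes. The 7 vary together and are not independent, so these shares describe the list and do not test it. Their median log2 fold change was -0.75, against 0.01 over all genes. DESeq2 called 0 of the 7, where it called 0.084% of 2382 genes. Without Let7d replicate 3, the lowest mouse id of the group, mt-Nd4 stood at -0.42.

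**Figure D1:**
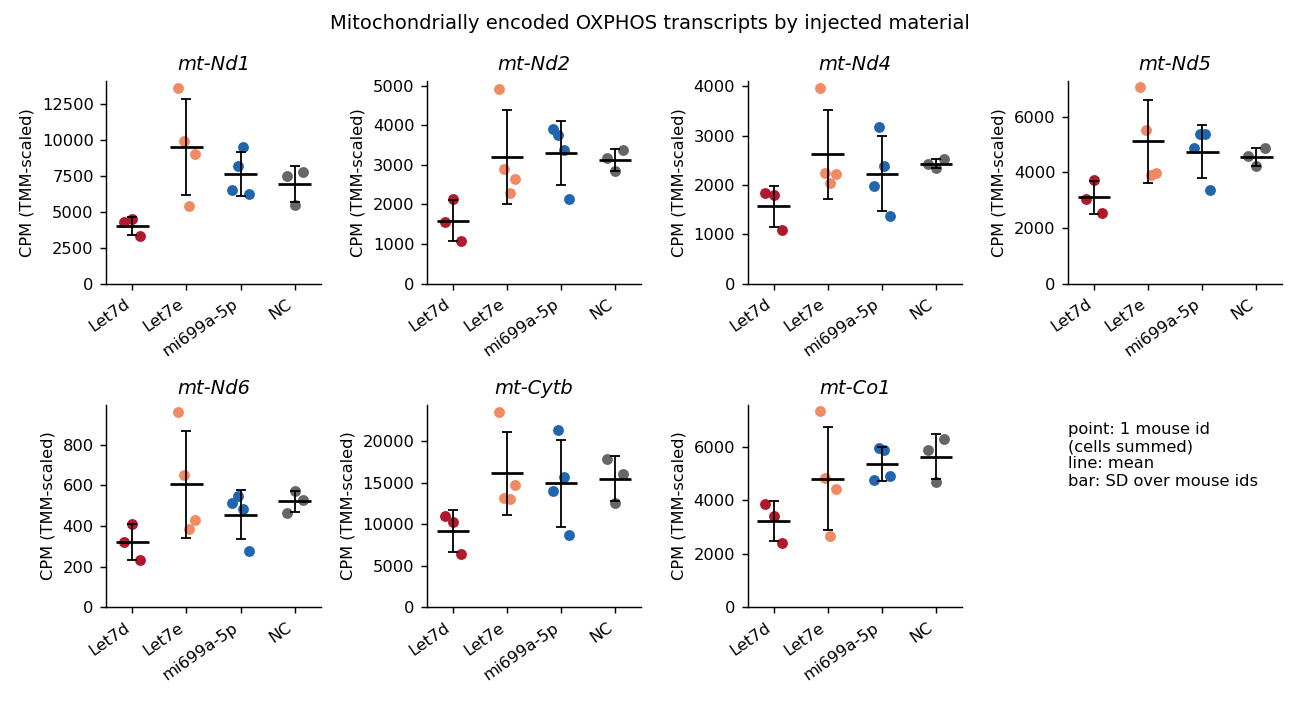
Level of each of the 7 transcripts (y axis, CPM of summed counts, TMM-scaled) by injected material (x axis). Each point is 1 mouse id, the line is the mean and the bar the SD; the 3 Let7d points lie below the 3 NC points in every panel, while Let7e and mi699a-5p overlap NC.

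Let7e and Let7d, which differ in sequence outside the seed, were compared directly at the same stage. The dose is not given in the labels. All 7 transcripts were higher in Let7e on the mean and 0 of 7 were called over all genes by edgeR, where 0% of genes were called. mt-Nd1 had 13600, 9913, 5436 and 9064 CPM in Let7e, against 4296, 4490 and 3317 CPM in Let7d. These values do not overlap, and its log2 fold change of 1.24 ± 0.26 (interval 0.70 to 1.77) had the lowest p of the 7886 genes (edgeR p = 0.00013, adjusted p = 0.537). DESeq2 called it, with an adjusted p of 0.00383 and 1.23, among 0.102% of 7881 genes.

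mt-Nd2 had 4922, 2905, 2294 and 2637 CPM in Let7e, against 1551, 2127 and 1091 CPM in Let7d (1.005 ± 0.28, interval 0.42 to 1.59). mt-Cytb had 23490, 13200, 13000 and 14760 CPM in Let7e, against 11030, 10240 and 6364 CPM in Let7d (0.81 ± 0.28, interval 0.22 to 1.40). In both genes the groups did not overlap. mt-Co1 had the smallest difference, with 7313, 4819, 2682 and 4418 CPM in Let7e, against 3841, 3401 and 2388 CPM in Let7d (0.58 ± 0.26, interval 0.04 to 1.13). Let7e replicate 3 lay among the Let7d values. That mouse id is a sum of 2 cells, the fewest of the 14. For mt-Nd4, mt-Nd5 and mt-Nd6 the log2 fold changes were 0.74 ± 0.28, 0.72 ± 0.23 and 0.92 ± 0.31.

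At an unadjusted p under 0.05, 7 of 7 passed in Let7e over Let7d, where 5.39% of all genes did, and Let7e lay wholly above Let7d for 5 of 7 (not mt-Nd6 and mt-Co1), where this held for 3.12% of all genes. The size of the difference rests in part on Let7e replicate 1, the highest mouse id for all 7 transcripts. Without it the log2 fold change was 1.01 for mt-Nd1 and 0.31 for mt-Co1, 0.47 for mt-Nd4 and 0.57 for mt-Cytb. That mouse id is also 1 of the 4 with both kinds of Y-linked cell.

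Against NC, Let7e gave no one-way difference. The log2 fold changes were 0.45 ± 0.25 for mt-Nd1 (interval -0.07 to 0.98), 0.03 ± 0.27 for mt-Nd2, 0.11 ± 0.28 for mt-Nd4, 0.17 ± 0.22 for mt-Nd5, 0.22 ± 0.30 for mt-Nd6, 0.06 ± 0.27 for mt-Cytb and -0.23 ± 0.25 for mt-Co1. Values of Let7e overlapped those of NC in all 7, where groups did not overlap for 5.62% of all genes. By edgeR and by DESeq2 0 of 7 were called, where 0% of genes were by either, and 0 of 7 passed an unadjusted p under 0.05, where 4.02% of all genes did. Without Let7e replicate 1 the sign turned for 5 of them (mt-Nd2 -0.26, mt-Nd4 -0.16, mt-Nd5 -0.03, mt-Nd6 -0.09 and mt-Cytb -0.18). Without the 4 mouse ids of mixed cells mt-Co1 was at -0.61 and mt-Nd1 at 0.10. These intervals do not show that Let7e and NC have equal levels.

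For mi699a-5p the values also overlapped NC in all 7, where groups did not overlap for 8.38% of all genes. By edgeR and by DESeq2 0 of 7 were called, where 0% and 0.16% of genes were. The log2 fold changes ran from -0.19 ± 0.30 for mt-Nd6 to 0.14 ± 0.25 for mt-Nd1, and 0 of 7 passed an unadjusted p under 0.05, where 5.5% of all genes did. mt-Cytb illustrates the spread, with 14040, 21340, 15680 and 8673 CPM in mi699a-5p, against 17870, 12590 and 15970 CPM in NC. The interval of its difference was -0.63 to 0.52.

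Let7d over mi699a-5p shares its Let7d values with the comparisons above, and NC is shared by the comparisons with NC. The log2 fold changes were -0.92 ± 0.25 for mt-Nd1, -1.05 ± 0.28 for mt-Nd2, -0.51 ± 0.28 for mt-Nd4, -0.61 ± 0.23 for mt-Nd5, -0.50 ± 0.30 for mt-Nd6, -0.70 ± 0.28 for mt-Cytb and -0.74 ± 0.26 for mt-Co1. By edgeR 0 of 7 were called, where 0% of all genes were, and 5 of 7 passed an unadjusted p under 0.05, where 5.01% did. DESeq2 also called 0 of 7, where it called 0.102% of genes. Without Let7d replicate 3, mt-Nd4 stood at -0.28 and mt-Nd6 at -0.29. Let7d lay wholly below mi699a-5p for mt-Nd1, mt-Nd2 and mt-Co1, where this held for 3.8% of all genes. mt-Nd2 had 3906, 3754, 3386 and 2135 CPM in mi699a-5p. Its lowest value was just above 2127 CPM, the highest of Let7d. In a test of any difference among the 4 labels, 0 of 7 were called by edgeR, where 0% of genes were, and the lowest p was 0.0014 for mt-Nd1, which did not pass after adjustment. At an unadjusted p under 0.05 mt-Nd1, mt-Nd2, mt-Nd5, mt-Co1 and mt-Cytb passed that test and mt-Nd4 and mt-Nd6 did not, where 5.59% of all genes passed.

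**Figure D2:**
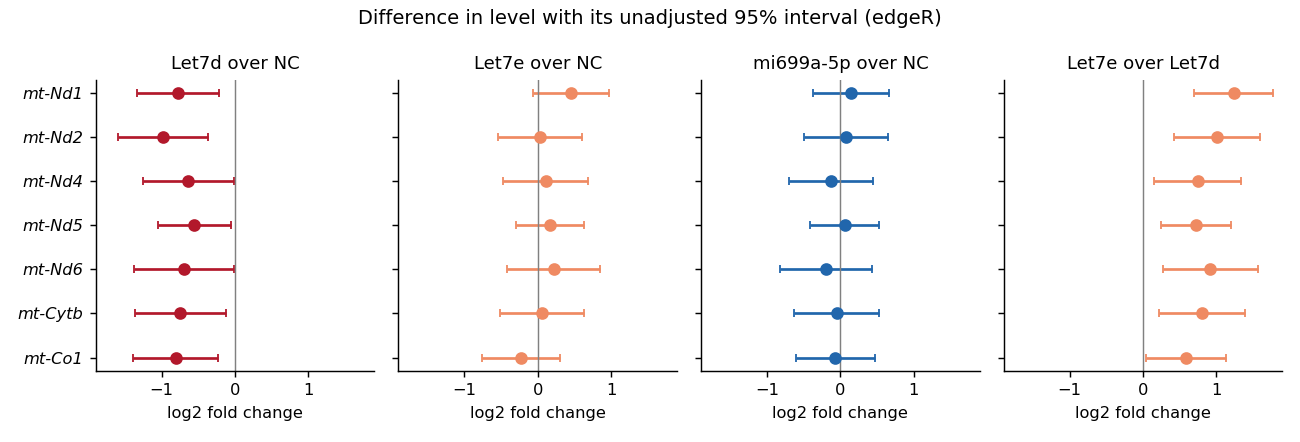
Log2 fold change (x axis) of each of the 7 transcripts (y axis) in 4 comparisons, from edgeR, with bars for the unadjusted 95% interval. In Let7d over NC every point is below 0 and in Let7e over Let7d every point is above 0, while in the other 2 panels every bar crosses 0.

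Properties of the libraries moved with Let7d as well. The share of reads on ribosomal RNA rows (mt-Rnr1, mt-Rnr2 and CT010467.1, annotated as rRNA on chromosome 17) was 8.78%, 5.39% and 3.75% in Let7d, against 14.7%, 9.16% and 14.9% in NC. The reads per cell averaged 4071285, 3122377 and 2991646 in Let7d, against 2732434, 2620622 and 2225246 in NC. The Y-linked level was below 10 CPM in all cells of Let7d replicates 2 and 3, against 4 of 8 cells of NC replicate 2 and 0 in NC replicates 1 and 3. With reads per cell or the Y-linked level as a covariate, all 7 stayed below 0 in Let7d over NC. With the log2 share itself as a covariate, the log2 fold change was -0.39 for mt-Nd1, -0.33 for mt-Nd2, -0.30 for mt-Co1, -0.19 for mt-Nd6, -0.15 for mt-Nd5, -0.04 for mt-Cytb and -0.03 for mt-Nd4. All 7 were thus smaller in size than without the covariate, where they ran from -0.98 to -0.55. The same covariate gave 0.34 for mt-Co1 to 1.05 for mt-Nd1 in Let7e over Let7d, and -0.09 for mt-Nd4 to -0.67 for mt-Nd1 in Let7d over mi699a-5p. The ribosomal RNA share, which includes mt-Rnr1 and mt-Rnr2, and the injected material cannot be told apart where they go together, and the covariate was added after seeing the data.

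By complex, reads of complex I subunits made up 1.11% ± 0.23 of a cell's reads in Let7d, 2.05% ± 0.66 in Let7e, 1.84% ± 0.38 in mi699a-5p and 1.74% ± 0.11 in NC (mean of mouse ids, SD, n = 3, 4, 4 and 3). The 5 complex I genes were counted together. Complex III, that is mt-Cytb alone, had 0.959% ± 0.243 in Let7d, 1.56% ± 0.4659 in Let7e, 1.49% ± 0.567 in mi699a-5p and 1.52% ± 0.208 in NC. Complex IV, mt-Co1 alone, had 0.336% ± 0.0737 in Let7d, 0.471% ± 0.186 in Let7e, 0.541% ± 0.0999 in mi699a-5p and 0.554% ± 0.0576 in NC. The Let7d mean was lowest in each complex and the Let7e mean for complex IV lay between Let7d and NC. A sum over the genes carries no test here.

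The mix among the 7 was compared as well. Of the reads of the 7, mt-Nd1 held 22.1%, 25.4%, 18.02% and 24.3% in the 4 Let7e mouse ids, against 17.99%, 16.9% and 18.6% in NC. mt-Co1 held 12.2%, 12.2%, 8.95% and 11.97% in Let7e, against 13.8%, 13.99% and 15.3% in NC. The mt-Co1 shares do not overlap and those of mt-Nd1 overlap through Let7e replicate 3, which holds 2 cells. In Let7d the shares were 15.6%, 17.1% and 19.6% for mt-Nd1 and 15.4%, 13.1% and 13.9% for mt-Co1, which overlap NC in both. The mix was looked at after its values were seen and has no test.

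In single cells the 7 together ran over a wide range within every group. Let7d cells held 1.45% to 4.50% of their reads in the 7, Let7e cells 1.19% to 6.65%, mi699a-5p cells 2.25% to 8.31%, and NC cells 2.56% to 5.59%. The lowest cell of all belonged to Let7e replicate 2, and the highest to mi699a-5p replicate 2. In these 2 mouse ids the highest cell exceeded the lowest by 4.58 and 3.69 times, against 1.34 times in Let7e replicate 1 and 1.36 times in mi699a-5p replicate 4. The 4.58 rests on 1 cell, which had the fewest genes detected of all cells (5562) and 0.894% of its reads on ribosomal RNA rows. Without it the ratio in Let7e replicate 2 was 2.27. Single cells of all groups overlapped.

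**Figure D3:**
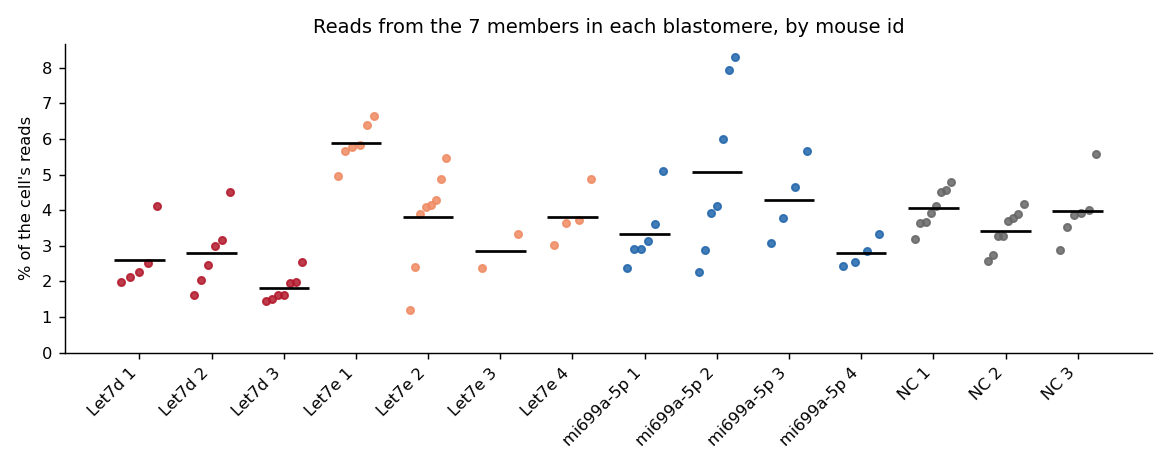
Percent of each cell's reads that fall on the 7 transcripts (y axis) for the 14 mouse ids (x axis, named by group and replicate). Each point is 1 cell and each line the mean of a mouse id; in Let7d replicate 3 all cells lie between 1.45% and 2.54%, while in mi699a-5p replicate 2 they run from 2.25% to 8.31%.

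The difference between cells of 1 mouse id was larger than that between mouse ids of 1 group. On log2(CPM + 1), the SD between cells of a mouse id was 0.46 for mt-Nd4 and mt-Nd2, 0.475 for mt-Nd1, 0.51 for mt-Cytb and mt-Nd6, 0.515 for mt-Nd5 and 0.67 for mt-Co1. The SD between mouse ids, with group means removed, was 0.15 for mt-Nd5, 0.18 for mt-Co1, 0.24 for mt-Nd1, 0.31 for mt-Nd2 and about equal, at 0.36, for mt-Nd4, mt-Nd6 and mt-Cytb. Of the variance within groups, which leaves out the differences between groups, 61.7% (mt-Nd4) to 93.2% (mt-Co1) lay between cells of 1 mouse id. Genes with a mean of at least 300 CPM, of which there were 610, had a median SD between cells of 0.59, a median SD between mouse ids of 0.20 and a median share between cells of 89.7%. mt-Co1 lay above the first of these and the other 6 under it. For all but mt-Nd5 and mt-Co1 the SD between mouse ids was above that median and the share between cells below it. These medians are not matched on level. The median SD between cells was 1.23 for the 5720 genes of at least 20 CPM, against 0.59 for those of at least 300 CPM. All of these transcripts but mt-Nd6 stood well above 300 CPM. Whether they vary less between cells than genes of like level was not tested.

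The spread was also taken over fewer cells. As the root mean square over mouse ids, the SD of mt-Co1 was 0.62 in all 14, 0.52 without the 4 mixed mouse ids and 0.48 without 4 cells described below. For the other 6 genes these SDs ran from 0.45 to 0.52 in all 14 mouse ids, from 0.46 to 0.55 without the mixed ones and from 0.38 to 0.49 without the 4 cells. These were chosen on a ratio with mt-Co1, so leaving them out lowers its SD by the way they were chosen.

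Whether the spread between cells differed with the injected material was tested per gene, with the SD over the cells of a mouse id as 1 value (mouse ids with at least 3 cells). For mt-Cytb the mean SD was 0.41 in Let7d, 0.53 in Let7e, 0.57 in mi699a-5p and 0.28 in NC (n = 3, 3, 4 and 3). For mt-Co1 it was 0.37 in Let7d, 0.55 in Let7e, 0.68 in mi699a-5p and 0.61 in NC, and single mouse ids of mi699a-5p ran from 0.21 to 1.19. The exact permutation test over all 1201200 assignments called 0 of the 7, with p = 0.23 for mt-Cytb as the lowest and an adjusted p of 0.955 for each, and 0 of 7 had an unadjusted p under 0.05. No difference in spread was detectable with this number of mouse ids.

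The 7 transcripts varied together from cell to cell. With the mean of each mouse id removed, the median Pearson r of log2(CPM + 1) over the 21 pairs was 0.59 in 81 cells, which share a total per cell and the depth of their library. mt-Nd1 and mt-Cytb were the most alike, at 0.85, then mt-Nd5 and mt-Co1 at 0.825, and mt-Nd4 and mt-Cytb at 0.78. The least alike were mt-Nd2 and mt-Co1, at -0.10. Over the 14 mouse ids the median was 0.84 and the lowest pair, mt-Nd6 and mt-Co1, had 0.63. With the reads of the 7 and of ribosomal RNA left out of the total, the median was 0.63. With mouse ids split by Y-linked reads it was 0.58.

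By group, the median r was 0.84 in Let7d (18 cells), 0.74 in Let7e (20), 0.60 in mi699a-5p (21) and 0.38 in NC (22). The lowest pair was at 0.72 in Let7d, 0.24 in Let7e, -0.47 in mi699a-5p and -0.30 in NC. Without the 4 cells described next, the medians were 0.84 in Let7d, 0.74 in Let7e, 0.80 in mi699a-5p and 0.50 in NC. In single mouse ids with at least 6 cells, of which there were 9, the median r ran from 0.164 to 0.938. The groups' values come from the same cells, so this range shows the spread and does not test the groups. The median over the 77 cells was then 0.72, and the pair of mt-Nd2 and mt-Co1 had 0.375.

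**Figure D4:**
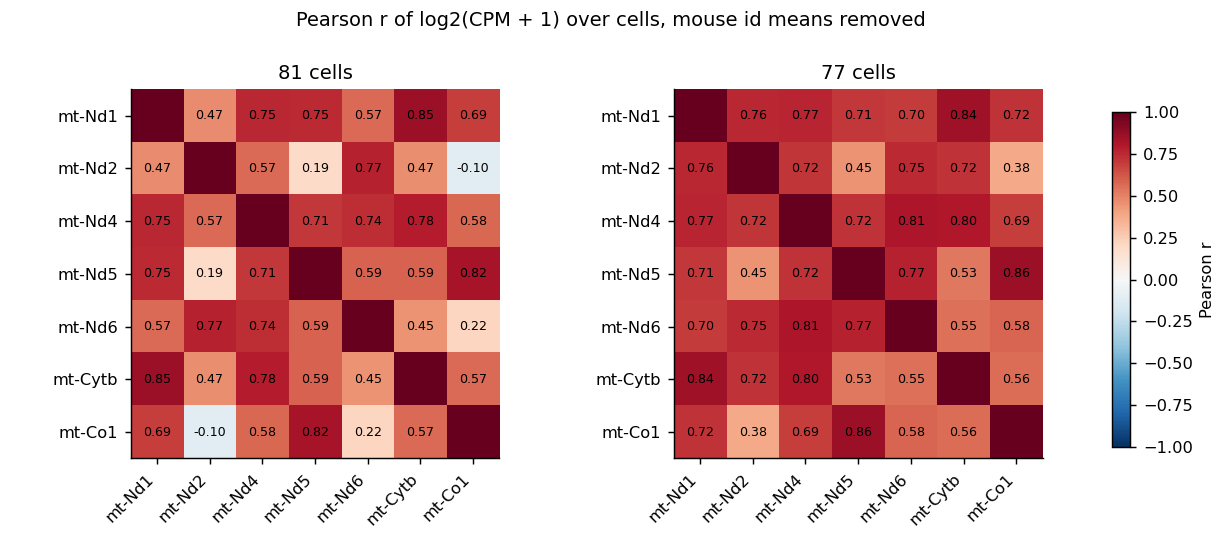
Pearson r between the 7 transcripts over cells (both axes list the genes, colour and number give r), with the mean of each mouse id removed. The left panel holds 81 cells and the right panel the 77 cells left without 4 cells of a high mt-Nd2 to mt-Co1 ratio, where the lowest pair is at 0.375 in place of -0.10.

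The ratio of mt-Nd2 to mt-Co1 was highest in 4 cells. They were 2 cells of mi699a-5p replicate 1 (ratios of mt-Nd2 to mt-Co1 reads of 5.35 and 3.14), 1 of mi699a-5p replicate 2 (4.88) and 1 of NC replicate 2 (4.23). In the other 77 cells the ratio ran from 0.278 to 1.87, with a median of 0.529. The cut of 3 was set after these values were seen, so the cells are described without a test. Leaving them out raises the r of this pair by the way they were chosen, and it was still the least alike pair without them. In them mt-Nd2 made up 14.1% to 29.2% of the reads of the 7 and mt-Co1 4.50% to 5.46%. Median levels were 6202 CPM for mt-Nd2 and 1229 CPM for mt-Co1 in the 4 cells, against 2664 and 4977 CPM in the other 77. The other 5 genes differed less. mt-Nd5 had a median of 2764 CPM in the 4 cells, against 4391 CPM in the others, and mt-Nd6 had 776 CPM in the 4 cells, against 463 CPM in the others. mt-Nd4 differed little, at 2078 CPM in the 4 cells, against 2158 CPM in the others. Some mitochondrial tRNA rows differed by a larger ratio than mt-Nd2, with 117 CPM of mt-Tq in the 4 cells, against 26.1 CPM in the others, and 65.5 CPM of mt-Tt in the 4 cells, against 14.6 CPM in the others.

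Nuclear messages of the same cells differed by length. Genes whose longest annotated transcript has at most 1000 bases were 291 in number, of which 34 encode ribosomal proteins. Their reads were taken as a share of the reads on 7595 nuclear protein-coding genes with a known length. This share was 10.6% to 22.2% in the 4 cells, against 3.13% to 11.3% with a median of 4.22% in the others. Over 81 cells, mouse id means removed, this share had r = 0.89 with the log2 ratio of mt-Nd2 to mt-Co1, and 0.69 over the 77. With the level of mt-Co1 itself r was -0.73, with mt-Nd2 0.58, with mt-Nd5 -0.49, and with the mean of the 7 -0.19. Of the 100 genes with the highest r to that ratio, 56 carry a ribosomal protein symbol, led by Rps19 at 0.93, and the median length of their transcripts was 987 bases, against 3336 over the 5720 genes ranked. The part of transcript length, RNA quality or cell state in this was not tested.

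**Figure D5:**
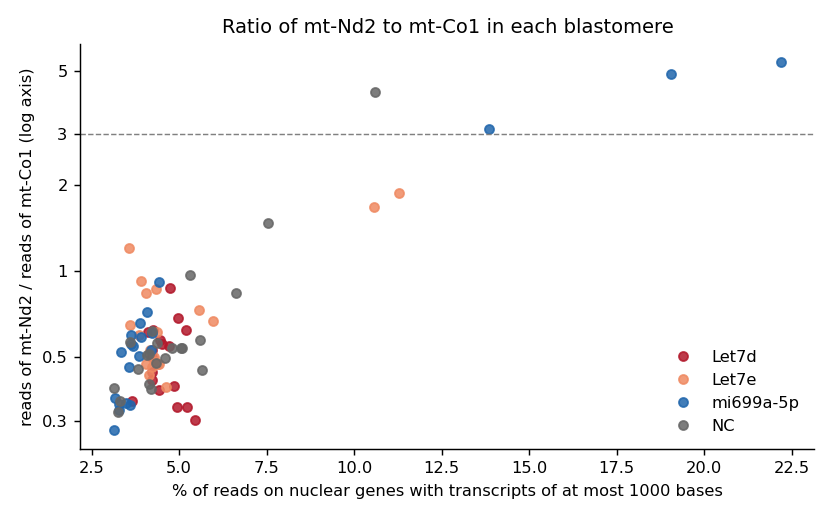
Ratio of mt-Nd2 to mt-Co1 reads (y axis, log scale) against the percent of nuclear protein-coding reads on genes with transcripts of at most 1000 bases (x axis). Each point is 1 of 81 cells, coloured by injected material. The 4 cells above the dashed line at 3 take 10.6% to 22.2% of their nuclear protein-coding reads from such genes.

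The mean of the 7 was set against other genes across cells. Among 5720 genes of at least 20 CPM, mt-Rnr2, the large mitochondrial ribosomal RNA, was the most alike, at r = 0.65 (81 cells, mouse id means removed). The next were Bdp1, a subunit of the RNA polymerase III initiation factor TFIIIB, at 0.53, Pik3r4 at 0.51, Fam91a1 at 0.495, Atg2b at 0.49, and Suz12, a Polycomb subunit, at 0.49. Rbbp6, Mospd1, Rock1 and Rmnd5a followed at 0.47 to 0.48. The lowest were Ubxn1 at -0.48, Mrto4 at -0.46, Dnttip2 at -0.45, and Cops6 and Wdr18 at -0.45 each. Of the 5720 genes 5% had an r of at least 0.29 and the median was 0.02. A correlation over so many genes is ranked and not tested.

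As sets, nuclear subunits of complexes I, III and IV, to which the 7 belong, did not rise with them across cells. The median r with the mean of the 7 was -0.155 for 36 nuclear subunits of complex I. It was -0.15 for 9 of complex III and -0.22 for 11 of complex IV. All r of complexes III and IV were below 0, while those of complex I reached 0.20. For complexes II and V, which have no gene among the 7, the median was 0.10 (3 genes) and -0.12 (15 genes). For mt-Rnr1 r was 0.42 and for CT010467.1 0.43. Of the library measures, r with the mean was 0.45 for the log2 share of ribosomal RNA rows, 0.31 for the share of the 50 most abundant genes, 0.23 for genes detected and -0.03 for log2 reads.

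In the comparisons given here, the medians of the nuclear subunits were smaller in size than the median of the 7. In Let7d over NC the median log2 fold change was -0.15 for complex I (15 of 36 above 0), 0.06 for complex II (2 of 3), -0.09 for complex III (3 of 9), 0.02 for complex IV (6 of 11) and -0.13 for complex V (5 of 15), against 0.01 over all genes and -0.75 for the 7. By edgeR 0 were called, and at an unadjusted p under 0.05 only Atp5f1, a subunit of the ATP synthase stalk, passed (-0.48 ± 0.21, adjusted p = 0.993), which is 1.35% of the 74 nuclear subunits, where 4.69% of all genes passed. Ndufv1, a subunit that binds NADH, had 87.3 CPM in Let7d, against 132.5 CPM in NC (-0.60 ± 0.32), and Cox6c 212 CPM in Let7d, against 315 CPM in NC (-0.57 ± 0.28). In Let7e over Let7d the medians were 0.19, 0.05, 0.10, 0.11 and 0.22 for complexes I to V, against 0.81 for the 7. Above 0 were 25 of 36, 2 of 3, 6 of 9, 7 of 11 and 12 of 15. Of these 0 were called, also at an unadjusted p under 0.05, where 5.39% of all genes passed. In Let7d over mi699a-5p most lay below 0, as the 7 did. Below 0 were 30 of 36, 1 of 3, 9 of 9, 9 of 11 and 13 of 15. The medians were -0.23, 0.12, -0.26, -0.27 and -0.28, against -0.02 over all genes and -0.70 for the 7. By edgeR 0 were called there, where 0% of all genes were.

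Genes that make, cut and translate these messages were followed with assembly factors. By edgeR 0 were called in Let7d over NC, where 0.0127% of all genes were, and 0 in Let7e over Let7d, where 0% were. At an unadjusted p under 0.05, 1 of 12 translation factors (Gfm1) and 1 of 34 assembly factors (Ndufaf1) passed in Let7d over NC. In the 2 other lists below 0 passed there, where 4.69% of all genes did. In Let7e over Let7d 1 of 20 genes of mitochondrial DNA replication and transcription passed (Mrpl12). Of 29 of RNA processing and stability 1 did (the tRNA-modifying enzyme Gtpbp3, -1.19 ± 0.50), where 5.39% of all genes passed. Of 20 genes of mitochondrial DNA replication and transcription, 9 were above 0 in Let7d over NC (median -0.07). Mrpl12, a ribosomal protein known also to bind Polrmt, had 198 CPM in Let7d, against 274 CPM in NC (-0.47 ± 0.25, p = 0.08 by edgeR), and 0.54 ± 0.24 in Let7e over Let7d (p = 0.0368). Mgme1, an exonuclease of mitochondrial DNA, had -0.69 ± 0.47 and 0.88 ± 0.45. Of 29 genes of RNA processing and stability, 14 were above 0 in Let7d over NC. Pnpt1, which degrades mitochondrial RNA, had 1.03 ± 0.71 there, and Grsf1, an RNA granule protein, 0.69 ± 0.35 in Let7e over Let7d. Of 12 translation factors 6 were above 0 in Let7d over NC, led by the elongation factor Gfm1 with 144 CPM in Let7d, against 58.8 CPM in NC (1.29 ± 0.33, edgeR adjusted p = 0.886). Gfm1 was at 128 CPM in Let7e (1.12 ± 0.31 over NC) and at 134 CPM in mi699a-5p (1.19 ± 0.31 over NC), so NC stood low against all 3 groups. Of 34 assembly factors 12 were above 0, and Ndufaf1, an assembly factor of complex I, was at 23.9 CPM in Let7d, against 45.04 CPM in NC (-0.91 ± 0.42).

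The other 9 mitochondrially encoded rows were the 2 ribosomal RNAs and 7 tRNAs. In Let7d over NC mt-Rnr2 had 11010 ± 2775 CPM in Let7d, against 20130 ± 2514 CPM in NC (SD, n = 3 each). Its log2 fold change was -0.87 ± 0.33 (edgeR p = 0.0168, adjusted p = 0.986), and mt-Rnr1 had 1638 CPM in Let7d, against 2425 CPM in NC (-0.57 ± 0.43). In Let7e over Let7d mt-Rnr2 gave 0.56 ± 0.31. The tRNA rows were low (means of 11.1 to 66.9 CPM over cells, and at 0 in 1 cell for mt-Tm and mt-Tr) and gave no one-way difference in Let7d over NC, from -0.65 ± 0.71 for mt-Tr to 0.11 ± 0.62 for mt-Tq. mt-Tq, a tRNA of the opposite strand to mt-Nd1, was at 79.8 CPM in Let7e, against 27.0 CPM in Let7d (1.56 ± 0.61, adjusted p = 0.924 by edgeR). Let7e replicate 1 carried this value, at 193 CPM, and without it the Let7e mean was 41.9 CPM and the log2 fold change 0.63 ± 0.51.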

How the data were processed

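Read counts per gene and cell were deposited by the authors, as whole numbers with totals that differ between cells. By their name these counts had already passed a filter on CPM, and they hold 7886 genes. Shares of a cell's reads are shares of the reads on these genes. Per the submitters' processing notes, reads were handled with STAR on GRCm38.p6. The counting program and the version are not given in the sources used here. Of 92 labelled cells 82 had a column, and 10 were not analysed here. A pair of Let7d replicate 2 columns differed by less than the sampling noise (chi-square of 1.05 per gene, against 28.7 for the next pair) and was counted as 1 cell, which left 81. The deposited RPKM table was not used, since the gene length implied by its values was not constant.

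Counts of the 2 to 8 cells of each mouse id were summed (6329464 to 24037593 reads), and mouse ids are called replicates by the number in the id. The p-values measure only the spread between mouse ids. Tests used edgeR 4.0.16 in R 4.3.3 (TMM, filterByExpr, quasi-likelihood F test, 1 fit of 4 groups, two-sided, threshold 0.05 after adjustment, common dispersion 0.249). DESeq2 1.42.0 and limma 3.58.1 served as alternatives. Shares and correlations were computed in Python 3.11.15 from unscaled CPM per cell with a pseudocount of 1. The exact permutation test of the spread was one-way over 4 groups and adjusted over 7 genes. Gene names and coordinates are from GENCODE M21 (7878 of 7886 identifiers matched), and microRNA sequences from RefSeq. The scripts were tested on simulated data.

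The 7 genes were named by rule, and of other genes the mitochondrially encoded rows, members of smallest p of each list in 2 comparisons, and those with the 10 highest and 5 lowest r, of which the text gives a selection. Genes named for the ratio of mt-Nd2 to mt-Co1 were chosen after their values were seen. Members and lists were chosen with earlier results of these data known.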

Additional observations from a re-analysis of the deposited data

Results flagged for a closer look

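Among 22 sets of 4 mouse ids, 2 held a value far from the others (Dixon's test at 95%, which chance meets in about 1 of 20 sets). Both came from Let7e replicate 1. It had 23490 CPM of mt-Cytb, against 13000 to 14760 CPM in the other 3 Let7e mouse ids, and 3963 CPM of mt-Nd4, against 2051 to 2253 CPM in the other 3. The gap took up 0.832 and 0.894 of the range. The same mouse id had the highest share of ribosomal RNA rows in Let7e, at 14.01%, against 6.03% to 8.64%, and 4 of its 6 cells were low in Y-linked reads. Their part in the values was not tested.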

How the results depend on the processing

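In Let7d over NC 0 of 119 values in 17 settings and 0 of 42 with 1 mouse id left out changed sign, but the size depended on the setting (-1.07 to -0.0255, the smallest with the ribosomal RNA share as a covariate, and -1.24 to -0.42), and in Let7e over Let7d 0 of 119 and 0 of 49 did (0.30 to 1.27 and 0.31 to 1.43). DESeq2 called 1 of the 7 in Let7e over Let7d (mt-Nd1), where edgeR called 0, and the adjusted p of mt-Nd1 without 1 mouse id was 0.0502 at the lowest. Differences near 0 changed sign with settings. In Let7e over NC, mt-Nd2 was at -0.00906 with upper-quartile scaling, -0.0451 with limma-trend on the mean of cells, -0.00362 with the short-transcript share as a covariate and -0.32 without the 4 mixed mouse ids. Without these mt-Nd4 was at -0.18, mt-Nd5 at -0.075, mt-Nd6 at -0.018 and mt-Cytb at -0.30, and with reads per cell as a covariate mt-Nd4 was at -0.0298 and mt-Cytb at -0.12. With the ribosomal RNA share as a covariate mt-Co1 was at 0.0396. With 1 mouse id left out the ranges were -0.26 to 0.16 for mt-Nd2, -0.16 to 0.21 for mt-Nd4, -0.028 to 0.28 for mt-Nd5, -0.093 to 0.385 for mt-Nd6 and -0.18 to 0.17 for mt-Cytb. In mi699a-5p over NC, mt-Nd2 was at -0.105 without the 4 cells and -0.000991 with the short-transcript covariate, and mt-Nd5 at -0.000636 with upper-quartile scaling. mt-Cytb was at 0.065 with the Y-linked covariate, 0.073 with reads per cell and 0.046 with a replicate block. mt-Co1 was at 0.013 with the Y-linked covariate and 0.000811 without the 4 cells. With the ribosomal RNA share as a covariate mt-Nd4 was at 0.063, mt-Cytb at 0.18 and mt-Co1 at 0.11. With 1 mouse id left out the ranges were -0.025 to 0.23 for mt-Nd1, -0.016 to 0.22 for mt-Nd2, -0.35 to 0.033 for mt-Nd4, -0.050 to 0.175 for mt-Nd5, -0.27 to 0.12 for mt-Cytb and -0.18 to 0.020 for mt-Co1. The causes were not tested. The share of reads in the 7 in NC was 4.39% with ribosomal RNA rows out of the total.

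Same-numbered mouse ids had a mean correlation over all genes of 0.006 (19 pairs, -0.126 to 0.128), against -0.002 for other pairs. Whether they share more than a number cannot be told from this mean. A replicate block called 0 of the 7 in each of the 5 comparisons. The spread between cells gave 0 calls in every alternative run. The lowest count of any of the 7 in a cell was 323 reads. Alternatives that leave out the 4 mixed mouse ids or split ids by Y-linked reads, those on the 4 cells, the short-transcript share and the ribosomal RNA share as covariates, and the spread with 1 mouse id left out were added after seeing the data.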
